A study of Mus musculus with 19 samples.

Results

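Retinoic acid synthesis, uptake and degradation was followed at 9 mouse genes: Rdh10, Dhrs3, Aldh1a1, Aldh1a2, Aldh1a3, Stra6, Cyp26a1, Cyp26b1 and Cyp26c1. Open chromatin had been profiled by bulk ATAC-seq, a method that tags accessible DNA with a transposase, in forebrain progenitors of mouse embryos at embryonic day 14, separated with magnetic beads by the surface protein Prom1. The 19 libraries comprised 6 Foxc1 hith/LacZ mutants on a retinoic acid diet, 5 Foxc1 WT controls on that diet, 4 mutants without it and 4 controls without it, grouped by their titles. The hith allele is hypomorphic and LacZ marks an insertion allele; Foxc1 is needed for the forebrain meninges, a source of retinoic acid, and the study asks how that source acts on neurogenesis. Mutant 1 bears a wild-type genotype entry against its title, and the summit lists hold no check of genotype. No statement was found on whether the libraries of a group came from separate embryos or pools, so p-values measure the spread between these samples, which may be technical.

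Each library is a list of peak summits, single bases of highest signal, each with a deposited score (the -log10 of a q-value). A summit was assigned to a gene when that gene had the nearest end of a protein-coding gene within 100 kb. The lists held 29112 to 122591 summits, and the best-scoring 29112 of every library were compared as lists of equal length; summits, regions and ranks in them are called matched. Summits of several libraries at most 200 bp apart formed a region, kept when at least 2 libraries contributed. The 9 genes received 18 of 44884 regions in the equal-length lists and 112 of 150489 regions in the full lists. Within a library, rank 1 is the strongest summit. A difference in bulk cells cannot be told apart between fewer cells with an open site and a less open site per cell. Of 12 radial glia genes, 8 showed an end summit, one within 1 kb of either gene end, in every equal-length list. These were Sox2, Fabp7, Slc1a3, Vim, Hes5, Sox9, Emx2 and Hopx. Over all protein-coding genes the share was 29.7%. Pax6, Nes, Hes1 and Prom1 itself had an end summit in some of the lists only. The sorting by Prom1 was not tested by these counts.

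Retinol enters cells in part through STRA6, the membrane receptor for retinol-binding protein. RDH10 oxidises retinol to retinal, DHRS3 reduces retinal back to retinol, and the dehydrogenases ALDH1A1, ALDH1A2 and ALDH1A3 oxidise retinal irreversibly to retinoic acid. The cytochrome P450 enzymes CYP26A1, CYP26B1 and CYP26C1 hydroxylate retinoic acid and so clear it. In the embryonic forebrain ALDH1A2 is best known from the meninges. Retinoic acid receptors bind as heterodimers to direct repeats of hexamers such as AGGTCA, and Cyp26a1 and Dhrs3 are known targets of this signal.

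Promoter sequences were available for 7 of the 9 genes in a RefSeq table of GRCm38.p6, with 13 windows of 250 bases before to 50 after a start site. Aldh1a3 and Rdh10 were not matched. The sequences below are the stretches on which the promoter results turn. Capitals mark the 2 hexamers of a direct repeat in Cyp26a1 and, in Dhrs3, the base at which a summit was called most often. The other 2 have no capitals because neither AGGTCA nor AGTTCA occurs in them.

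Cyp26a1 site, chr19:37697770-37697799, plus strand: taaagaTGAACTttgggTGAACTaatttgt

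Dhrs3 summit, chr4:144892745-144892774, plus strand: gcgcgagggcgagctGtgcacgagaagaaa

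Aldh1a2 upstream, chr9:71215539-71215788, plus strand: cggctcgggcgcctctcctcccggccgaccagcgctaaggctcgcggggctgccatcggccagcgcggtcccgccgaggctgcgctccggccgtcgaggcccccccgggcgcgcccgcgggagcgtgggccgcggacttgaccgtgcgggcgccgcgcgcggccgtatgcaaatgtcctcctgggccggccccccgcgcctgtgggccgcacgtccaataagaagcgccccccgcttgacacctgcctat

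Cyp26b1 upstream, chr6:84593909-84594060, minus strand: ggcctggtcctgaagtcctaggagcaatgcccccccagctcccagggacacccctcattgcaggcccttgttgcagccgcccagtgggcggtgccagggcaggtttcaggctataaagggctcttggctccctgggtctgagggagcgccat

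The Cyp26a1 repeat reads AGTTCA, the spacer CCCAA and AGTTCA on the minus strand, with a spacing of 5 bases, and lies 32 to 16 bases before the tabulated start site. The hexamers AGGTCA and AGTTCA were searched on both strands of 32851 promoter windows, and repeats could combine either hexamer. A direct repeat with spacing 5 was present in 13 windows (0.0396%), one of which is this window, and repeats with spacing 1 or 2 in 27 (0.0822%) and 13 (0.0396%) windows, none of them at the 9 genes. Either hexamer alone occurred in 27.7% of all windows and, at these genes, in 2 of 13 windows, that of Cyp26a1 and one of Stra6. No summit of any library lay inside the Cyp26a1 window. The nearest summit lay within 500 bp of the repeat in 8 of 19 libraries, at 130 bp for mutant 2 on the diet, and the median over libraries was 1170 bp.

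The Dhrs3 window around the printed summit held a summit in 16 of 19 full lists, namely in 4 of 6 mutants on the diet, 5 of 5 controls on the diet, 3 of 4 mutants and 4 of 4 controls. Its ranks ran from 17293 to 49370 with a median of 37793, so most of these summits were too weak for the equal-length lists. The printed base was the summit in 5 libraries. The Aldh1a2 window was the richest of the 13 in G and C at 78%, with 50 CpG dinucleotides, against medians of 52.7% and 7 over all windows. It held no summit, although 17 of 19 full lists had one about 455 bp outside the gene's lower-coordinate end, chr9:71215293-71215375. The Cyp26b1 window likewise held no summit in any library.

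**Figure D1:**
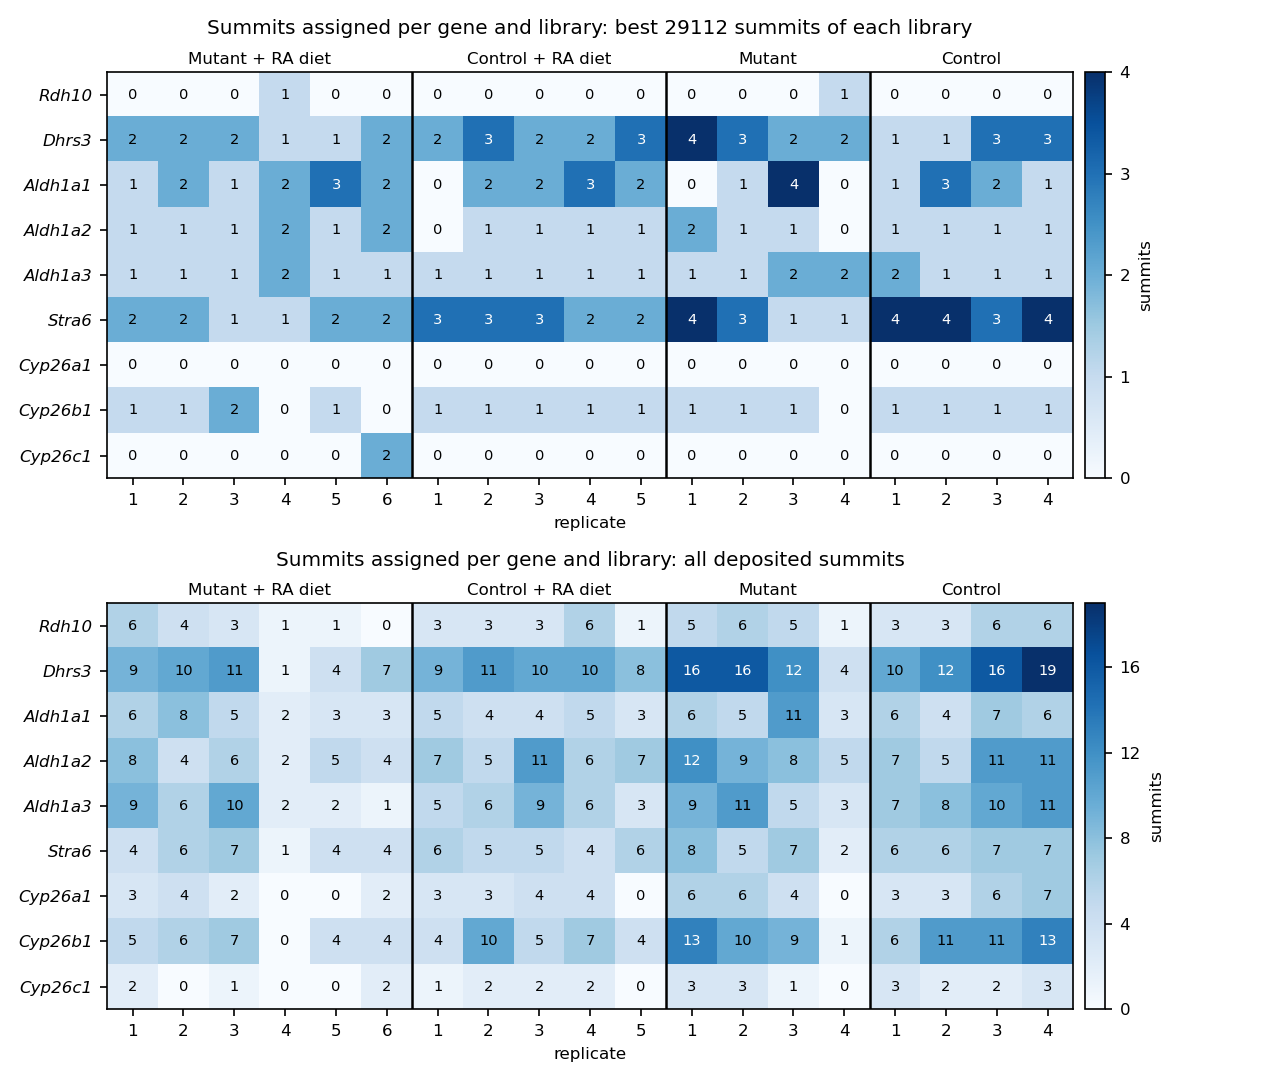
Summits assigned to each of the 9 genes (vertical) in each library (horizontal, by group and replicate number), in the equal-length lists above and the full lists below; numbers and colour both give the count. Stra6 and Dhrs3 had the most matched summits, up to 4 in a library, and Cyp26a1 had 0 in all 19 libraries.

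In the equal-length lists the genes differed from each other more than the groups did. Dhrs3, Stra6 and Aldh1a3 had a matched summit in all 19 libraries, Aldh1a2 in 17, Aldh1a1 and Cyp26b1 in 16, Rdh10 in 2, Cyp26c1 in 1 and Cyp26a1 in 0. Over the 9 genes the median of the mean number of summits per library was 1.05, against 0.947 over 21887 protein-coding genes. Near gene ends, 1 of the 9 (11.1%, Aldh1a3) had a summit within 1 kb in every library, against 29.7% of all genes, and 4 of the 9 (44.4%) had none in any library, against 47.0%. In the full lists the median was 5.26 summits for the 9 genes and 1.53 for all genes, and each of the 9 had a summit within 1 kb in at least 3 libraries. The genes span different lengths, and Aldh1a1 is annotated over 150881 bases, so these counts are not levels per length.

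Among the retinol and retinal enzymes, Rdh10 (chr1:16105882-16132550) was assigned few matched summits, because a strong site before its lower-coordinate end lies nearer to the neighbouring gene Rpl7 (chr1:16101295-16104433). All 19 libraries had 1 matched summit there, 838 to 1187 bp from Rdh10 and 262 to 611 bp from Rpl7, at ranks of 4245 to 10212. Counted over the gene body and 5 kb on both sides, Rdh10 thus had 1 or 2 matched summits in every library; to which gene that site belongs was not tested. By the nearest end, it had 1 summit in mutant 4 on the diet and 1 in mutant 4, and 0 in the other 17 libraries. In the full lists it had summits in 18 libraries, 66 in all, and its most frequent region lay inside the gene, chr1:16123003-16123102, in 14 libraries at ranks of 46902 to 87525. No Rdh10 region of the full lists had a rank better than 28830. The better of its 2 matched summits ranked 21167 and fell in no Rdh10 region.

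Dhrs3 (chr4:144892534-144928209) had 5 matched regions, all outside the gene by 1758 to 71787 bp, and all inside the neighbouring gene Vps13d, which contains Dhrs3 in the annotation (chr4:144871045-145195037). All 21 Dhrs3 regions of the full lists also lay inside Vps13d, so a link of these regions to either gene was not tested. Matched Dhrs3 summits ranged from 1 to 2, with a median of 2, in the 6 mutants on the diet. They were 2, 3, 2, 2 and 3 in controls on the diet. They were 4, 3, 2 and 2 in mutants and 1, 1, 3 and 3 in controls. Mutants on the diet did not exceed the lowest mutants and the other groups overlapped. Against mutants, Dhrs3 in mutants on the diet stood at log2 -0.58 (SE 0.281, limma adjusted p = 0.719), and the interaction of diet and genotype was -0.90 with SE 0.405 (unadjusted p = 0.0412, limma adjusted p = 1). Without mutant 4 on the diet, whose list is the shortest, equal-length lists lengthen to 48323 and these values became -0.06 and 0.11, the second with the opposite sign.

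The Dhrs3 region with the best single rank, 6491, lay 8766 bp outside the gene's higher-coordinate end, chr4:144936893-144937057, and split the libraries inside groups. Its median rank of 18873 was close to those of 2 other Dhrs3 regions (18456 and 18092). It ranked 11684 and 6491 in mutants 1 and 2 and 10717 and 6679 in controls 3 and 4, but had no matched summit in the other mutants or controls. Mutants 1, 2 and 3 on the diet had ranks of 16852, 20894 and 14222 and the other 3 had none, while controls on the diet had 27175, 27146, 27715, 21424 and 24971. The 4 libraries with the strongest ranks have lists of 108298 to 122591 summits, among the 5 longest in the series. A second region, 9350 bp outside the lower-coordinate end at chr4:144883128-144883241, had matched summits in 3 of 6 mutants on the diet at ranks of 16557 to 27947. It had them in 3 of 5 controls on the diet at 19967 to 26307, in mutants 1 and 2 at 16944 and 14055, and in 4 of 4 controls at 15755, 24549, 7637 and 10368. Setting libraries without it after the last rank, the log2 rank was higher, thus weaker, by 0.96 in mutants on the diet than in controls (two-sided exact permutation p = 0.00952, unadjusted, 1 of 90 such tests on the 18 regions). Controls on the diet differed from controls by 0.97 (exact permutation p = 0.0159, unadjusted). The ranks of both diet groups overlapped those of controls.

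**Figure D2:**
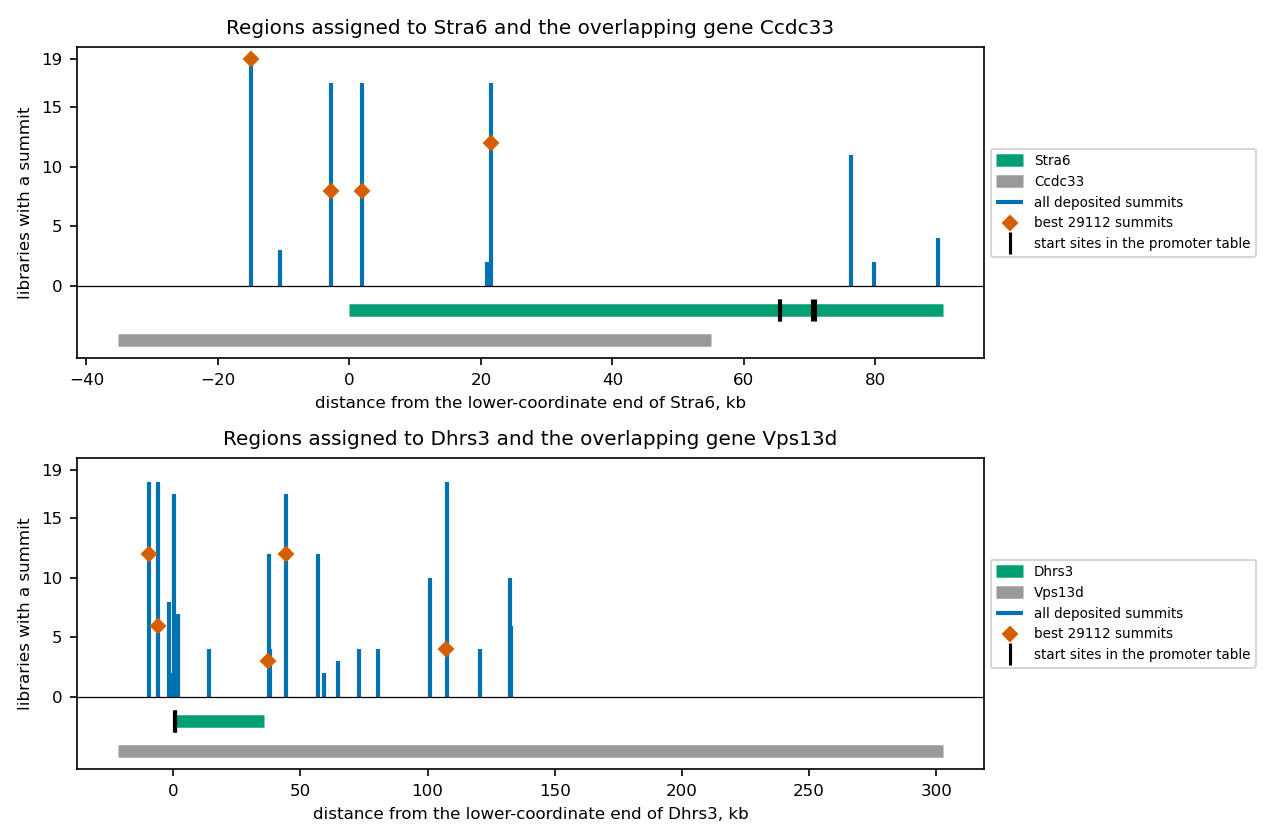
Libraries with a summit (vertical) for every region assigned to Stra6 and Dhrs3, by distance in kb from the lower-coordinate end of the gene; blue lines show full lists, orange diamonds equal-length lists, bars the annotated genes and black ticks tabulated start sites. All 4 matched Stra6 regions lie inside Ccdc33 and all 5 matched Dhrs3 regions inside Vps13d.

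Among the 3 retinal dehydrogenases, Aldh1a3 had the most constant site, Aldh1a2 a distal one, and Aldh1a1 variable ones. Aldh1a3 (chr7:66390892-66427477) had a region 61 bp outside its higher-coordinate end, chr7:66427485-66427591, with a matched summit in all 19 libraries. Its rank was 10938 to 19482 with a median of 17242 in the 6 mutants on the diet. It was 10870, 14366, 11353, 14090 and 18727 in controls on the diet. It was 16608, 20932, 24551 and 8039 in mutants and 19124, 14932, 25969 and 27236 in controls. The ranks of controls on the diet overlapped those of controls, with a log2 rank difference of -0.64 and SE 0.273 (limma adjusted p = 0.826). Mutant 4 had the strongest rank of all 19 libraries, and mutants on the diet differed from mutants by 0.02 with SE 0.262 (limma adjusted p = 0.984). A region 31937 bp outside the gene had matched summits in mutant 4 on the diet and mutant 3 and in 15 full lists.

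Aldh1a2 (chr9:71215789-71296243) owed most of its matched summits to one region 59654 bp outside its higher-coordinate end, chr9:71355813-71355981, in 17 matched and 19 full lists. Its rank was 11724 to 17956 in the 6 mutants on the diet. It was 12847, 11700, 13607 and 24045 in controls 2 to 5 on the diet and missing from the equal-length list of control 1 on the diet. It was 22818, 18535 and 26748 in mutants 1 to 3 and missing in mutant 4, and 24538, 20300, 16017 and 14063 in controls. Each mutant on the diet ranked stronger than each mutant, by -0.69 on the log2 rank scale (two-sided exact permutation p = 0.00476, the smallest that 6 against 4 libraries can give, unadjusted over 90 tests). Over all 44884 regions, 0.490% separated these groups in that direction, and 1 of the 18 regions did. The region does not enter the fit across regions because 2 equal-length lists lack it. In the full lists it was fitted with 18701 regions, at -0.85 with SE 0.301 (limma adjusted p = 0.167), and without mutant 4 on the diet, at 48323 summits per library, at -0.78 with SE 0.312 (limma adjusted p = 0.265), neither of which passed.

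Matched Aldh1a2 summits per library ranged from 1 to 2 with a median of 1 in the 6 mutants on the diet. They were 0, 1, 1, 1 and 1 in controls on the diet, 2, 1, 1 and 0 in mutants and 1 in each control, and no contrast passed (lowest limma adjusted p = 0.928). Against controls, mutants on the diet stood at log2 0.25 and controls on the diet at -0.32. Without mutant 4 on the diet, at 48323 summits per library, the 5 mutants on the diet had 4 ± 0.707 summits and the 4 controls 1.75 ± 0.50 (SD). Each of these 5 had at least 3 summits and each control at most 2, a separation in that direction that 0.445% of the 13265 genes measured there showed. That log2 difference was 1.02 with SE 0.228 (unadjusted p = 5.16e-04, limma adjusted p = 0.171). Controls on the diet had 3.60 ± 0.548 (SD, n = 5), a log2 difference of 0.89 from the same controls (limma adjusted p = 0.581). Both comparisons share those control libraries. The direction was not kept in the full lists, with 4.83 summits in mutants on the diet and 8.5 in controls (log2 -0.79, unadjusted p = 0.0288, limma adjusted p = 0.202), and with 7.2 in controls on the diet against the same controls (-0.20, limma adjusted p = 0.979). Full lists differ in length, with means of 63769 summits in mutants on the diet and 98555 in controls. Each of the 9 genes had fewer summits there in mutants on the diet, so list length and diet could not be told apart. Mutants had 3 ± 1.41 (SD, n = 4) at 48323 summits per library, without mutant 4 on the diet, and not in the full lists.

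Aldh1a1 (chr19:20492583-20643463) had 4 matched regions, 3 of them inside the gene. The one deepest inside, 64838 bp from the nearer gene end at chr19:20557385-20557457, had matched summits in 6 of 6 mutants on the diet, 3 of 5 controls on the diet, 1 of 4 mutants and 2 of 4 controls. Its ranks were 9033 to 22582 with a median of 15846 in mutants on the diet. They were 17638, 13508 and 25497 in controls 2, 3 and 4 on the diet, 8206 in mutant 3, and 22966 and 25996 in controls 2 and 3. The presence in mutants on the diet against mutants gave the smallest p of the 18 regions in that contrast (two-sided Fisher's exact p = 0.0333, adjusted p = 1). This difference of 75 percentage points was 0 without mutant 4 on the diet, at 48323 summits per library, and 100 without mutant 3. Of the 7 libraries without it, 6 had a weaker summit there in the full list. Setting missing libraries after the last rank, each mutant on the diet ranked stronger than each control (log2 rank -0.88, exact permutation p = 0.0190, unadjusted), and 0.778% of all regions separated these groups in that direction. A region 6808 bp outside the gene, chr19:20650231-20650311, was present in 2 of 6 mutants on the diet, 4 of 5 controls on the diet, 2 of 4 mutants and 4 of 4 controls.

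By number of matched summits, Aldh1a1 had 1 to 3 with a median of 2 in the 6 mutants on the diet. It had 0, 2, 2, 3 and 2 in controls on the diet, 0, 1, 4 and 0 in mutants and 1, 3, 2 and 1 in controls. Mutants on the diet differed from mutants by 0.97 on the log2 scale with SE 0.606 (limma adjusted p = 0.778), within the spread between the mutants. Without mutant 3 the difference was 1.63, without mutant 4 on the diet -0.04 and in the full lists -0.43.

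**Figure D3:**
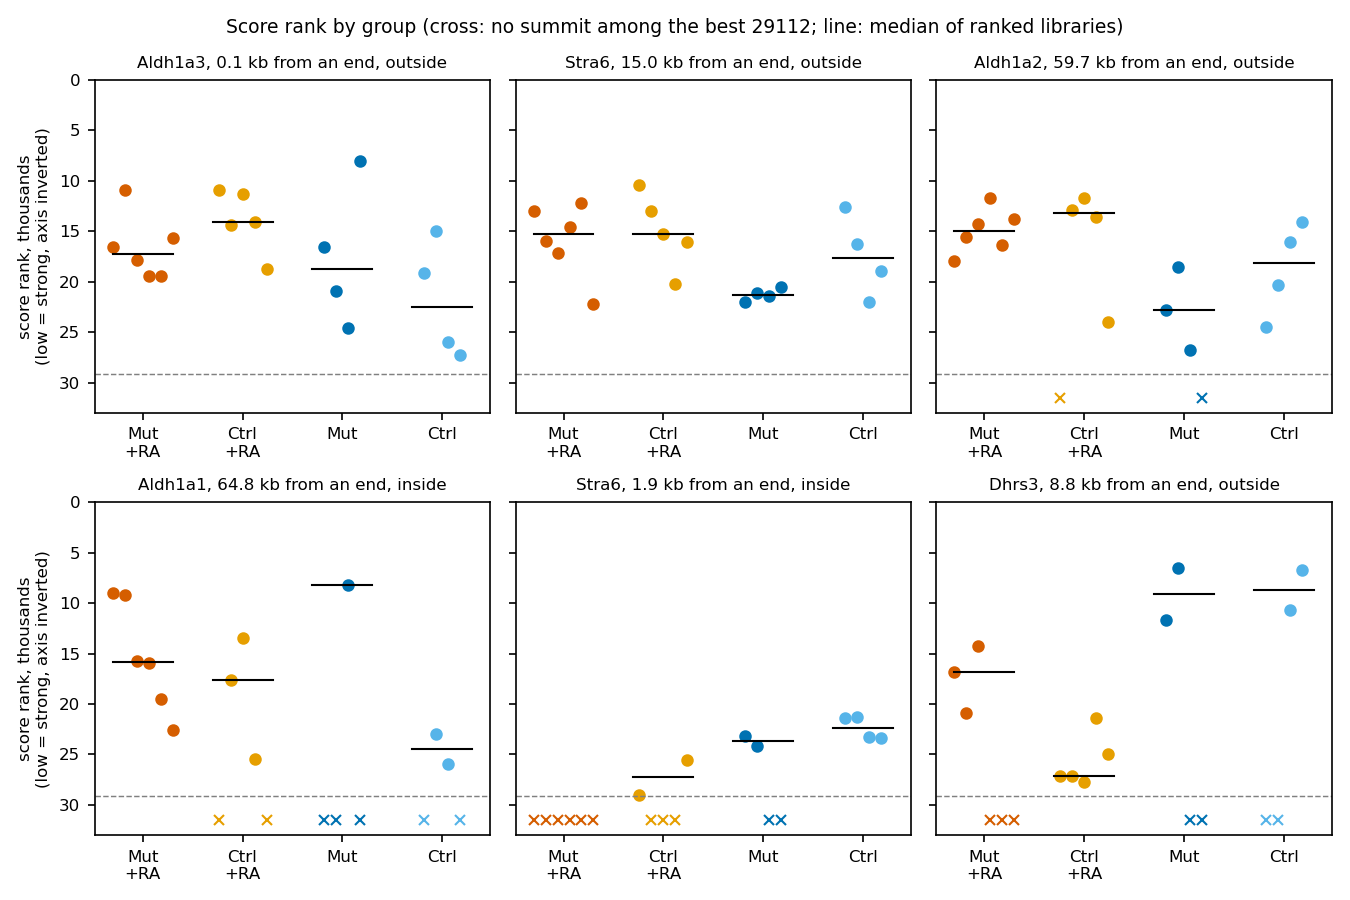
Score rank, with strong summits at the top, of 6 regions by group; points are libraries, crosses are libraries with no summit among the best 29112 (dashed line), and bars are medians of ranked libraries. The Aldh1a2 region ranks stronger in every mutant on the diet (11724 to 17956) than in every mutant, and the Stra6 region 1928 bp inside has no point in the 6 mutants on the diet.

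By the nearest end, Stra6, the retinol uptake gene (chr9:58063793-58154004), had the most matched summits of the 9 genes and, in the lists of 29112, the lowest unadjusted p per gene. It had 1 to 2 summits, median 2, in the 6 mutants on the diet. It had 3, 3, 3, 2 and 2 in controls on the diet, 4, 3, 1 and 1 in mutants, and 4, 4, 3 and 4 in controls. Each mutant on the diet lay below each control, which 0.369% of the 10829 measured genes showed in that direction. The 6 mutants on the diet averaged 1.67 ± 0.516 and the 4 controls 3.75 ± 0.50 (SD), log2 -1.0 with SE 0.287 (unadjusted p = 0.00297, limma adjusted p = 0.343), which did not pass. Mutants differed from controls by -0.79 with SE 0.314 (limma adjusted p = 0.773), and mutants 1 and 2 lay in the range of controls while mutants 3 and 4 lay below it. Genotype over both diets gave -0.66 with SE 0.207 (unadjusted p = 0.00539, limma adjusted p = 0.782). Without mutant 1, whose genotype entry is wild-type, the mutant difference was -1.09 (limma adjusted p = 0.219). Both values were the lowest among the alternatives for this contrast, and the difference nearest to none was -0.36, in the full lists. Without mutant 4 on the diet, at 48323 summits per library, mutants on the diet had 3.40 ± 0.548 (SD, n = 5) against 4 in every control, a log2 difference of -0.22 (limma adjusted p = 0.919). Counted over the gene body and 5 kb on both sides, the 6 mutants on the diet averaged 3.17 ± 0.753 matched summits and the 4 controls 4.75 ± 0.50 (SD). Those counts overlapped, at 2 to 4 and 4 to 5, and the difference did not pass.

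The 4 matched Stra6 regions lay toward the lower-coordinate end of the annotated gene, whereas 3 of the 9 regions in the full lists lay toward the other end, the most frequent of them in 11 libraries (chr9:58140102-58140175). All 4 matched regions fell inside the overlapping gene Ccdc33 (chr9:58028673-58118823) and 43820 to 80283 bp from the nearest Stra6 start site of the promoter table, so a link of them to Stra6 was not tested. The tabulated start sites lie inside Stra6 but nearer to an end of Ccdc33, so summits at them were not counted for Stra6. Their window chr9:58133825-58134124 held a summit in 8 of 19 full lists, at ranks of 49298 to 94872. The region 1928 bp inside the gene, chr9:58065678-58065764, was the one with the smallest Fisher p among the 18. It had matched summits in 0 of 6 mutants on the diet, 2 of 5 controls on the diet (ranks 29023 and 25564), 2 of 4 mutants (23134 and 24156) and 4 of 4 controls (21404, 21346, 23279 and 23353). Mutants on the diet against controls gave a two-sided Fisher's exact p = 0.00476, the smallest possible (adjusted p = 1), and 0.270% of all regions were present in every control and no mutant on the diet. The ranks of all 8 libraries lay near the end of the equal-length lists, and 9 of the 11 libraries without it had a weaker summit there, so that 17 of 19 full lists held the region. Regions with the same presence in all 19 libraries numbered 2, near Reep3 and Rgs6, and 16 differed in 1 library.

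Another Stra6 region, 14988 bp outside the gene at chr9:58048702-58048908, had a matched summit in all 19 libraries. Its rank was 12191 to 22213 with a median of 15247 in the 6 mutants on the diet. It was 10365, 13001, 15279, 20212 and 16050 in controls on the diet. It was 22045, 21109, 21469 and 20567 in mutants and 12629, 16276, 22042 and 18973 in controls. All mutants were weak and close together, and all mutants on the diet but replicate 6 ranked stronger than them. Mutants on the diet differed from mutants by -0.45 on the log2 rank scale with SE 0.210 (limma adjusted p = 0.266, exact permutation p = 0.0381 unadjusted). Diet over both genotypes gave -0.34 with SE 0.151 (limma adjusted p = 0.246).

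Of the degradation enzymes, Cyp26b1 alone had a recurrent matched region, 3475 bp inside the gene's higher-coordinate end (the gene spans chr6:84571414-84593908, the region chr6:84590394-84590472). It was present in 4 of 6 mutants on the diet, 5 of 5 controls on the diet, 3 of 4 mutants and 4 of 4 controls, at ranks of 18282 to 27795. The 3 libraries without it, mutants 4 and 6 on the diet and mutant 4, had no summit there in their full lists either and have the 3 shortest lists of the series. Over all 18 regions, 136 of 171 missing combinations of region and library (79.5%) had such a weaker summit. At 48323 summits per library and without mutant 4 on the diet, Cyp26b1 had 3, 3, 4, 3 and 4 summits in mutants on the diet and 3, 2, 2, 2 and 2 in controls on the diet. It had 2, 2, 2 and 1 in mutants and 1, 2, 2 and 1 in controls. Mutants on the diet exceeded every mutant and control there, which 0.0905% of the 13265 genes showed (0.384% against mutants and 0.445% against controls alone), by 0.81 on the log2 scale over mutants (unadjusted p = 0.00120, limma adjusted p = 0.239) and by 1.00 with SE 0.202 over controls (unadjusted p = 2.06e-04, limma adjusted p = 0.114). Neither passed, and these 2 comparisons share the mutants on the diet. The excess was not seen in the lists of 29112 or in the full lists. In the lists of 29112, where Cyp26b1 averaged under 1 summit and was not measured, it had 1, 1, 2, 0, 1 and 0 summits in mutants on the diet and 1 in each control. Full lists had 4.33 in mutants on the diet, against 8.25 in mutants (log2 -0.84, limma adjusted p = 0.470) and 10.2 in controls (-1.47, limma adjusted p = 0.208). Those lists averaged 63769 summits in mutants on the diet, against 95379 in mutants and 98555 in controls. List length and diet could thus not be told apart in the full lists.

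Cyp26a1 (chr19:37697738-37701536) had no matched summit in any library, and its 60 summits in the full lists came from 15 libraries. A region inside the gene 256 bp from the tabulated start site, chr19:37697922-37698206, was present in 1 of 6 mutants on the diet, 1 of 5 controls on the diet, 3 of 4 mutants and 3 of 4 controls. All its ranks were 65549 or beyond. Diet over both genotypes gave an exact stratified p = 0.0283 (adjusted p = 0.538 over 150489 regions). The lists on the diet were shorter, at 63769 ± 23749 summits for the 6 mutants and 77804 ± 13693 for the 5 controls on it, against 95379 ± 30545 for the 4 mutants and 98555 ± 22068 for the 4 controls without it (SD). List length and diet could not be told apart at such ranks. A region 76643 bp outside the gene was the most frequent, in 15 libraries.

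Cyp26c1 (chr19:37685112-37693320), the neighbour of Cyp26a1, had 2 matched summits, both in mutant 6 on the diet. In the full lists a region inside it, chr19:37690941-37691000, was present in 0 of 6 mutants on the diet, 0 of 5 controls on the diet, 2 of 4 mutants and 4 of 4 controls. Its p was 0.00476 for mutants on the diet against controls (Fisher's exact test, adjusted p = 0.561) and 0.00106 for diet over both genotypes (exact stratified test, adjusted p = 0.494). Of all regions in the full lists, 0.838% were present in every control and in no mutant on the diet. Its ranks were 52925 to 82400, beyond the matched length, where list length again ran with the diet.

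**Figure D4:**
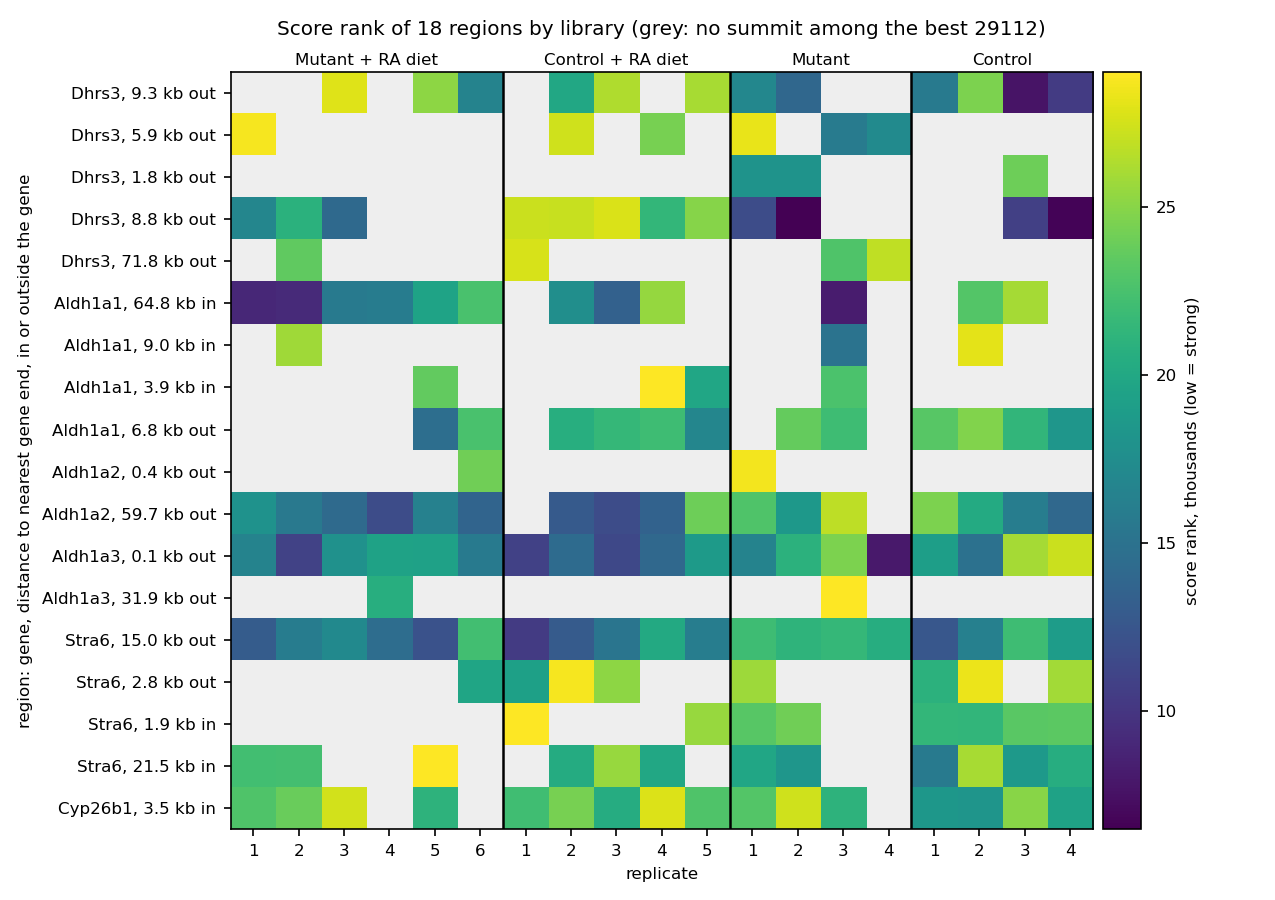
Score rank of the 18 matched regions (vertical, by gene, with the distance to the nearest gene end and whether the region is in or outside the gene) in each library (horizontal, by group); dark is strong and grey is no matched summit. The Aldh1a3 region 0.1 kb outside and the Stra6 region 15 kb outside are filled in all 19 libraries.

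By group, the 9 genes held 9 ± 1.10 matched summits per library in the 6 mutants on the diet, 9.60 ± 1.52 in the 5 controls on the diet, 9.75 ± 2.63 in the 4 mutants and 10.8 ± 0.50 in the 4 controls (SD). In the full lists they held 35.2 ± 18.1 in mutants on the diet, 45.4 ± 8.32 in controls on the diet, 57.5 ± 26.5 in mutants and 66 ± 15.9 in controls. Per 10000 deposited summits these were 5.19 ± 1.23 in mutants on the diet, 5.83 ± 0.370 in controls on the diet, 5.73 ± 1.42 in mutants and 6.68 ± 0.330 in controls. The lowest shares, 3.09 and 3.81, belonged to the shortest list (mutant 4 on the diet) and to mutant 4, and the share was at most 7.2 in any library.

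**Figure D5:**
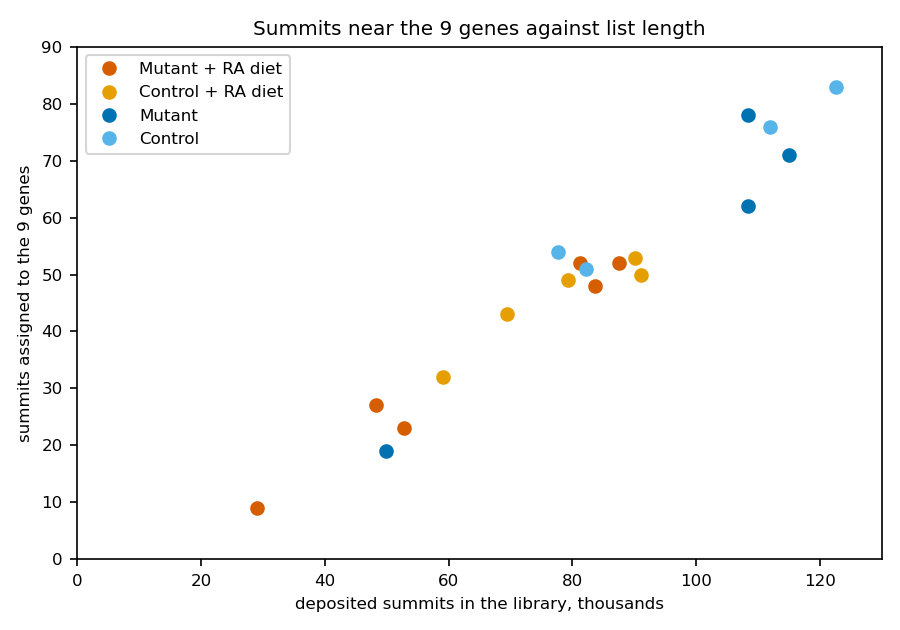
Summits assigned to the 9 genes (vertical) against the length of each full list (horizontal); points are libraries, coloured by group. The count climbs with list length within and between groups, up to 83 summits in the longest list.

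In the tests across all features, 0 members passed an adjusted p of 0.05 in any contrast. Per gene, 5 of the 9 reached a mean of 1 matched summit and were measured, namely Aldh1a1, Aldh1a2, Aldh1a3, Dhrs3 and Stra6. Ranks were fitted for the 2 regions present in all 19 libraries, at Aldh1a3 and Stra6, and presence was tested for the 18 regions. For mutants on the diet against controls on the diet, which asks what the mutation does under supplied retinoic acid, limma called 0 of 5 genes, against 0.0277% of all measured genes, and 0 of 2 ranks, against 0%. Fisher's exact test called 0 of 18 regions, against 0%. Without adjustment, a p under 0.05 was reached by 0 genes (3.07% of all), 0 ranks (1.73%) and 0 regions (0.305%). For mutants against controls, which asks what loss of Foxc1 function does, the calls were 0 of 5, 0 of 2 and 0 of 18, against 0% of all features for each. At an unadjusted p there were 1 gene (Stra6, against 5.71%), 0 ranks (12.8%) and 0 regions (0.152%). For controls on against off the diet the calls were 0 of 5, 0 of 2 and 0 of 18, against 0% for each. At an unadjusted p there were 0 genes (4.27%), 1 rank (Aldh1a3, 5.89%) and 0 regions (2.62%).

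Mutants on against off the diet, the comparison on whether supplied retinoic acid alters mutant chromatin, also had 0 calls among the 5 genes (0.0185% of all genes), the 2 ranks (0.00767% of all ranked regions) and the 18 regions (0%). At an unadjusted p there were 0 genes (6.81%), 1 rank (Stra6, 17.0%) and 1 region (in Aldh1a1, 1.21%). Mutants on the diet against controls had 0 calls, against 0.0277% of genes, 0% of ranks and 0% of regions. At an unadjusted p there were 1 gene (Stra6, 6.66%), 0 ranks (13.4%) and 1 region (in Stra6, 2.75%). Genotype over diets had 0 calls, against 0.00923%, 0% and 0%, and at an unadjusted p 1 gene (Stra6, 5.85%), 0 ranks (10.3%) and 1 region (in Stra6, 1.68%). Diet over genotypes had 0 calls, against 0.0646%, 0.414% and 0%, and at an unadjusted p 0 genes (7.29%), 1 rank (Stra6, 16.9%) and 1 region (in Stra6, 4.15%). The interaction had 0 calls, against 0.00923% of genes and 0% of ranks, and at an unadjusted p 1 gene (Dhrs3, 3.49%) and 0 ranks (4.48%). The median log2 difference of the 5 genes ran from -0.21 to 0.26 over the 8 contrasts, and over all measured genes it was 0.00 in each. In the full lists the 112 regions had 0 calls in each contrast, against 0%.

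The wider retinoid pathway was read in 2 lists. Of 28 genes of retinoid storage, transport and oxidation, 13 were measured and 0 were called in any contrast. Their median log2 difference was 0.00 in each. In mutants against controls, Stra6l, a relative of Stra6 that binds retinol-binding protein, had 2 against 3 summits per library (log2 -0.49 with SE 0.143, limma adjusted p = 0.668), and the retinal reductase gene Rdh11 had 1.5 against 1 (0.37, limma adjusted p = 0.668). Of 15 genes of retinoid binding proteins and receptors, 12 were measured and 0 were called. The receptor gene Rarb, a known retinoic acid target, had 3 summits per library in controls on the diet and 2.25 in controls (log2 0.43 with SE 0.198, limma adjusted p = 1). Rxra, whose protein pairs with retinoic acid receptors, had 2.50 in mutants and 4.25 in controls (log2 -0.83 with SE 0.464, limma adjusted p = 0.795). None of these differences passed.

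Cells other than progenitors could carry retinoid genes, and their markers were read in the same equal-length lists. Over all protein-coding genes, 29.7% had an end summit in every library and 47.0% had none in any library. Of 14 meningeal fibroblast genes, 0 had an end summit in every library. Foxc2, Col3a1, Col15a1, Lum, Crabp2 and Islr had none in any library, a share near that of all genes. Their summed summits were 19 to 22 in mutants on the diet, 16 to 21 in controls on the diet, 16 to 21 in mutants and 15 to 19 in controls. Their part in the results on Aldh1a2, which meningeal cells are known to express, was not tested. End summits in every library were found for 1 of 10 endothelial genes (Kdr), 1 of 8 mural genes (Tbx18), 0 of 9 microglial, 0 of 6 erythroid, 0 of 8 choroid plexus and 3 of 11 neuronal genes (Tubb3, Neurod6 and Map2). The neuronal share is near the 29.7% of all genes. Which cells were present was not tested by these counts.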

How the data were processed

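The deposited files list 1 summit per line with a score, the -log10 of a q-value, which the authors called per library, and which the submitters' processing notes attribute to MACS2; these notes also name BWA, Signac and DiffBind, with no versions, and the builds mm10 and GRCm38. Read counts were not used here, so depth is unknown. Scores served to rank summits within a library. Genes came from RefSeq (GRCm38.p6), which gives no strand, so distances run to the nearer gene end. Summits per gene (log2 of the matched count plus 0.5, genes with a mean of at least 1) and log2 ranks of the 13035 regions present in all libraries were fitted with limma 3.58.1 (trend, robust) in R 4.3.3 with 1 coefficient per group. Presence was compared with two-sided Fisher's exact tests, stratified for pooled contrasts. P-values were adjusted by Benjamini-Hochberg over all features. The limma fits were checked on simulated counts and ranks with known changes, which does not show their power at the 9 genes. All 9 genes are named; of their regions, those present in all libraries, those near an end and those with the smallest p per contrast, and regions added after their values were seen. The members and gene lists were chosen with earlier results of these data known. At most 0.00144% of summits were shared with position and score between 2 libraries. The result for 1 gene of the wider retinoid lists is not reported here.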

Additional observations from a re-analysis of the deposited data

Results flagged for a closer look

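Within groups, 11 of 52 tested sets of values had 1 library apart from the others by Dixon's test, and chance flags about 1 in 20 groups. Counts of 0 to 4 summits tie often, so that any single differing library stands apart. For all 9 genes together, mutant 6 on the diet had 11 matched summits, control 1 on the diet had 7 and control 1 had 10. For Aldh1a3, mutant 4 on the diet and control 1 each had 2 summits where the others of their groups had 1. For Rdh10, mutant 4 on the diet and mutant 4 each had 1 where the others had 0. Cyp26c1 had 2 in mutant 6 on the diet and 0 in the other libraries. Aldh1a2 had 0 in control 1 on the diet, Cyp26b1 had 0 in mutant 4, and Stra6 had 3 in control 3 where the other controls had 4.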

How the results depend on the processing

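The 23 counts of genes, region ranks and regions called were 0 under each of the alternatives that could be fitted, among 30 in all: 19 with 1 library left out, other list lengths, thresholds, assignments, pseudocounts and filters, chaining distances, rank scales, no robust step and the replicate block. Same-numbered libraries correlated at -0.14 to 0.16 over 25 pairs, with 1 pair over 0.1. These values cannot settle whether the numbers pair libraries, because differently numbered pairs are not given beside them. With the replicate block, 0 members were called, and the Stra6 difference of mutants on the diet from controls was -1.05 (limma adjusted p = 0.188). Over its alternatives that adjusted p ran from 0.188 to 1 and the difference from -1.09 to -0.22. Among the differences per gene followed over the alternatives, the sign turned for the Dhrs3 interaction without mutant 4 on the diet (0.11) and for the Aldh1a1 difference between mutants on and off the diet without that library (-0.04), in full lists (-0.43) and with scores of at least 5 (-0.36). It also turned for Aldh1a2 in mutants on the diet against controls, which was 0.25, in full lists (-0.79) and with scores of at least 5 (-0.89), and in controls on the diet against controls, which was -0.32, without mutant 4 on the diet (0.89). Cyp26b1 in mutants on the diet was above controls without that library (1.00) but below them in full lists (-1.47), with scores of at least 5 (-1.97) and with no filter on low values (-0.41). Against mutants it was 0.81, -0.84, -1.39 and -0.01 under the same 4 settings. With 1 library left out, the differences ran from -1.10 to 0.11 for Dhrs3, from 0.15 to 1.02 and from -0.40 to 0.89 for Aldh1a2 in mutants and controls on the diet against controls, and from -0.04 to 1.63 for Aldh1a1. For leaving out that library the matched length itself rises to 48323; other causes were not tested. Group means moved with list length by construction: for a score of at least 5 they were 23.7, 34.4, 42.8 and 55 in mutants on the diet, controls on the diet, mutants and controls. Lists of 14556 summits gave 1.5, 2, 1.25 and 1.5 in the same groups. Presence of weak summits is limited by list length.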
